A study of Heliconius melpomene cythera and Heliconius melpomene rosina with 32 samples.

Results

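The anterior hindwing of 8 pupae at 50% development was examined for expression differences between Heliconius melpomene cythera and H. m. rosina. These were all libraries labelled as anterior hindwing at that stage, 8 of the 32 of the series. The cythera libraries came from individuals 1 to 4 and the rosina libraries from individuals 5 to 8, each side with 2 females (individuals 1 and 3, individuals 6 and 8) and 2 males (individuals 2 and 4, individuals 5 and 7). H. m. cythera, from Ecuador, has iridescent blue wings and H. m. rosina, from Panama, has matt black wings. The whole study holds 16 individuals of both subspecies at 50% and 70% development, and each individual gave 1 library of the anterior hindwing and 1 of the forewing with the posterior hindwing. All animals came from captive stocks fed Passiflora biflora, so subspecies and stock cannot be told apart.

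Butterfly wing scales are single flattened cells whose upper surface carries chitin ridges joined by cross-ribs, and the blue of iridescent Heliconius comes from light reflected by layered ridges. The anterior hindwing is the area overlapped by the forewing. It bears a different type of scale, in males including the scent scales (androconia) that release pheromones, and it is not iridescent in either subspecies. A subspecies difference here is therefore one between the same wing area of 2 butterflies that both lack structural blue in it. The labelled tissue could not be checked against marker genes, because most rows of the count table carry only an identifier. No sequences of the loci were at hand, and none are shown.

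The deposited values were raw counts for 30720 rows. Most rows are loci assembled from the reads (MSTRG numbers), alone or joined to 1 or more IDs of annotated genes (HMEL numbers), and some carry names given by hand to 4 gene families. Total counts were between 29819839 and 43268883 in the cythera libraries and between 28681744 and 45559941 in the rosina libraries. A library without any count of a gene allows up to 3 counts, between 0.0640 and 0.107 CPM here (the usual library-size-scaled unit, after TMM), and this limit covers counting error only. None of 5 library measures passed a test of the difference between the subspecies (exact permutation test, two-sided, 4 against 4, smallest possible p = 0.0286). The nearest was the share of counts in the 10 highest rows, with 24.3% ± 2.34 in cythera and 21.1% ± 1.28 in rosina (SD, n = 4 each, exact p = 0.0571, adjusted over the 5 measures p = 0.286).

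The subspecies separated on the first dimension of a multidimensional scaling (MDS) of the libraries, which held 24.9% of the variance. The second dimension, with 21.7%, set cythera individual 4, a male, apart from the other 7 libraries, at -3.82 against -0.85 to 1.43. On this dimension the males lay below the females in both subspecies. With sex as a term the comparison below gave 164 loci in place of 185, and 139 of the 164 were among the 185. Leading log2 fold change distances, which average the 500 genes that differ most in a pair, had a median of 5.06 within cythera, 4.73 within rosina and 5.50 between the subspecies. The 3 cythera pairs with individual 4 lay at 5.23 to 6.13, beside 5.15 to 6.11 for the pairs between subspecies, and the other 3 cythera pairs at 4.32 to 4.88.

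**Figure D1:**
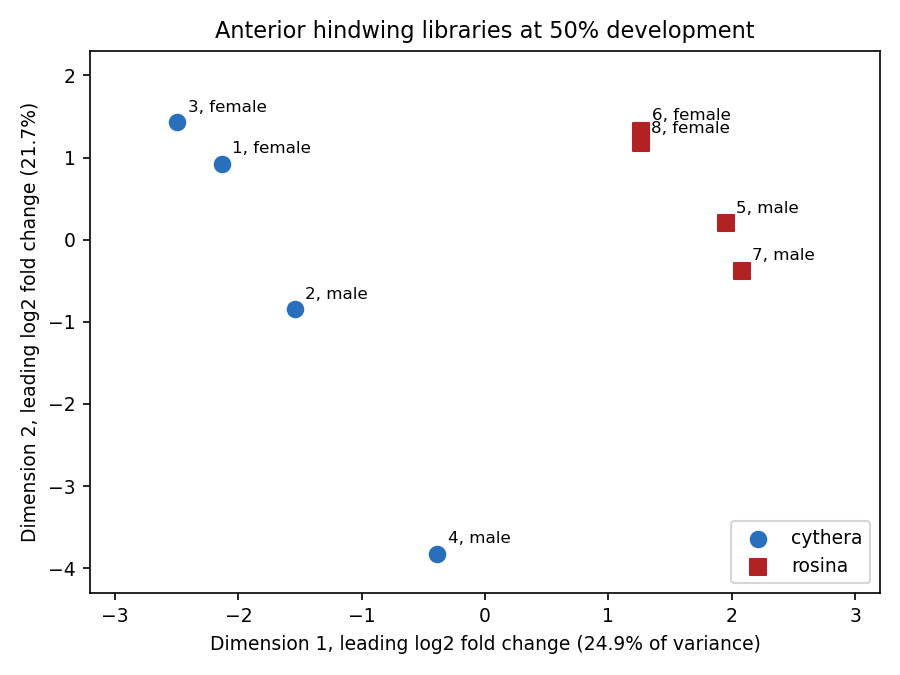
MDS of the 8 anterior hindwing libraries at 50% development over leading log2 fold changes of the top 500 genes, with dimension 1 on the x axis and dimension 2 on the y axis. Circles are cythera and squares rosina individuals, labelled by number and sex; cythera individual 4 lies alone at -3.82 on dimension 2.

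The comparison of the subspecies used 1 library per individual and edgeR's quasi-likelihood F-test. Of 13250 genes tested, 185 were differentially expressed (DE, Benjamini-Hochberg FDR under 0.05), which is 1.4% of them. There were 99 loci higher in cythera (0.747%) and 86 lower (0.649%), and 1838 genes had an unadjusted p under 0.05. Most differences of the DE loci were large. Their absolute log2 fold change had a median of 4.70 and a range of 0.66 to 15.35, against a median of 0.31 over all genes tested, and 161 of 185 exceeded 2. All 185 had no overlap between the cythera and the rosina libraries, which was so for 9.56% of all genes tested. These are bulk samples, in which fewer cells of a type and less RNA per cell cannot be told apart.

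The number of DE loci rested on the individuals. It was 41 without individual 1, 54 without 2, 354 without 4, 53 without 5, 44 without 7 and 23 without 8, and it was 140 without individual 3 and 244 without 6. Each of the 185 kept its direction with each individual left out. With no overlap between the groups this could hardly be otherwise, so it is no check of stability. In all 8 of these fits 18 of the 185 were DE, and in none of them 13. Without individual 4, 161 of the 185 were among the 354 DE loci, and 235 of the 354 were higher in cythera and 119 lower. Without individual 6 the balance was the opposite, with 88 of the 244 higher in cythera and 156 lower. With 2 females or 2 males a side edgeR gave 0 loci with an FDR under 0.05, and 2225 and 1486 genes had an unadjusted p under 0.05.

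The DE loci were spread unevenly over expression levels. With the genes tested divided into 4 equal bins by mean level, 2.35% were DE in the lowest bin (78 loci), and the shares were 1.66% (55), 1.06% (35) and 0.513% (17) in the next bins. The 36 DE loci with a mean above 10 CPM were evenly divided, 18 higher and 18 lower in cythera. Their median absolute log2 fold change was 2.22.

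**Figure D2:**
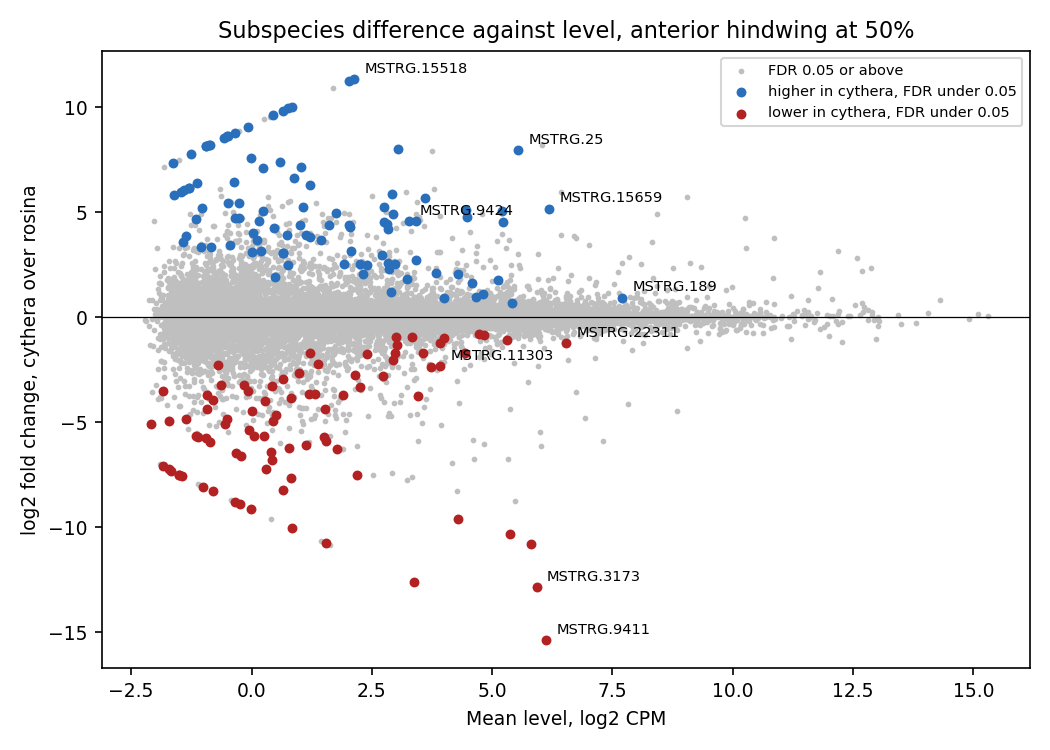
The log2 fold change of cythera over rosina (y axis) against mean level in log2 CPM (x axis) for the 13250 genes tested. Blue points are the 99 loci higher and red points the 86 lower in cythera at an FDR under 0.05, and the straight rows of points at the edges are loci with no counts in one of the subspecies.

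Most DE loci carried no annotated ID. Assembled loci without an annotated ID made up 3960 of the genes tested (29.9%) and 128 of the 185 DE loci (69.2%), and 3.23% of them were DE, 67 higher and 61 lower in cythera. Of 7909 loci with 1 annotated ID 51 were DE (0.645%), 30 higher and 21 lower. Of 1276 loci that join 2 or more annotated IDs 5 were DE (0.392%), 2 higher and 3 lower. Loci without an annotated ID were also expressed at lower levels, with a median of 0.20 log2 CPM against 3.57 for loci with 1 annotated ID, and the part of level in their share of DE loci was not tested. The 57 DE loci with an annotated ID had a median absolute log2 fold change of 3.14, and the 128 without one of 5.10. The share of loci without an annotated ID among the DE loci was between 58.2% and 71.3% with each individual left out, while their number ran from 14 without individual 8 to 206 without individual 4. It was 25 without individual 1, 36 without 2, 37 without 5 and 27 without 7.

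The 6 loci with the smallest p among those higher in cythera were read at low levels in every rosina library. MSTRG.9424, an assembled locus without an annotated ID, had 15.2, 12.8, 19.6 and 26.4 CPM in cythera individuals 1 to 4 and 0.695, 0.520, 0.880 and 0.992 CPM in rosina individuals 5 to 8. Its lowest cythera library lay more than 10 times above its highest rosina library, and individual 4 was the highest of the cythera libraries. The log2 fold change was 4.58 (SE 0.33, edgeR FDR = 0.0066). MSTRG.13599, also without an annotated ID, had 10.4, 6.94, 6.55 and 6.99 CPM in cythera and 0.232, 0.312, 0.633 and 0.367 CPM in rosina (log2 fold change 4.31, SE 0.38, edgeR FDR = 0.0066). Individual 1 was the highest here and the other 3 cythera libraries were nearly equal. MSTRG.22230 (HMEL010931) had 59, 77, 34 and 28 counts in cythera and 1 count in each rosina library, a cythera-to-rosina ratio of 50.5 (exact binomial 95% interval 19.4 to 187, counting error only; edgeR FDR = 0.00711). The other 3 loci, MSTRG.4592, MSTRG.20607 and MSTRG.4593, are described below with the loci that share their pattern. All 6 were DE with each individual left out.

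The 6 loci with the smallest p among those lower in cythera all lacked an annotated ID. MSTRG.11303 was the most abundant, with 6.38, 4.80, 4.38 and 4.43 CPM in cythera and 26.3, 20.9, 29.6 and 23.1 CPM in rosina (log2 fold change -2.32, SE 0.18, edgeR FDR = 0.0066). The 4 libraries of each subspecies were close together and the groups lay well apart. MSTRG.15652 had 0.304, 0.406, 0.427 and 0.294 CPM in cythera and 3.28, 4.37, 4.84 and 5.54 CPM in rosina (log2 fold change -3.65, SE 0.30, edgeR FDR = 0.0066). MSTRG.23708 had 0.127, 0.0854, 0.0712 and 0.117 CPM in cythera and 2.48, 2.39, 1.93 and 3.69 CPM in rosina (log2 fold change -4.66, SE 0.41, edgeR FDR = 0.0066). MSTRG.24655 had between 0.107 and 0.177 CPM in cythera and between 1.39 and 2.03 CPM in rosina (log2 fold change -3.50, SE 0.38, edgeR FDR = 0.0092). The cythera levels of the last 3 loci correspond to 2 to 19 counts a library, so they were low but not zero. MSTRG.443 had a single count in the 4 cythera libraries, in individual 4, and 121, 132, 87 and 111 counts in rosina. MSTRG.16335 had no count in cythera and 127, 87, 120 and 191 counts in rosina, a level lower in cythera by at least 41.5-fold when 3 counts are allowed in each cythera library (edgeR FDR = 0.0092 for both). With rosina individual 8 left out MSTRG.24655 and MSTRG.16335 missed the threshold (FDR = 0.0513 for both), and the other 4 remained DE with each individual left out.

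Among the 4 most abundant DE loci with an annotated ID in each direction, some differed by modest amounts and others by large steps. MSTRG.189 (HMEL035886g1) was the most abundant of those higher in cythera, with 304, 242, 258 and 291 CPM in cythera and 141, 154, 153 and 123 CPM in rosina. The groups did not overlap and the log2 fold change was 0.94 (SE 0.14, edgeR FDR = 0.0208). MSTRG.21538 (HMEL006054g1) had 56.9, 48.8, 54.1 and 48.2 CPM in cythera and 29.8, 33.5, 34.1 and 34.2 CPM in rosina, the smallest log2 fold change of all DE loci at 0.66 (SE 0.11, edgeR FDR = 0.0292). It remained DE in 1 of the 8 fits that left out an individual, and MSTRG.189 in 3 of 8.

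MSTRG.25 (HMEL002147g1) showed a far larger step. It had 96.4, 88.6, 91.2 and 94.7 CPM in cythera, close to each other, and no count in rosina individuals 5 and 6, with 18 and 43 counts (0.495 and 0.927 CPM) in rosina individuals 7 and 8. Its log2 fold change was 7.95 (SE 1.14, edgeR FDR = 0.0208), and it missed the threshold without individual 1, 2, 7 or 8 (highest FDR = 0.0804). In the forewing and posterior hindwing of the same animals MSTRG.25 had 89.7, 102, 88.0 and 66.7 CPM in cythera and no count in any of the 4 rosina libraries. The few rosina reads of this locus were thus found in the anterior hindwing libraries of 2 individuals.

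Of the annotated loci lower in cythera, MSTRG.22311, which joins HMEL006185g1 and HMEL006186g1, had 50.8, 52.1, 73.3 and 45.0 CPM in cythera and 128, 101, 142 and 149 CPM in rosina (log2 fold change -1.23, SE 0.20, edgeR FDR = 0.0248). The counts do not tell which of its 2 genes they came from. MSTRG.15267 (HMEL031919g1) had 26.1, 22.5, 31.7 and 22.3 CPM in cythera and 44.6, 62.1, 55.3 and 51.8 CPM in rosina (log2 fold change -1.06, SE 0.16, edgeR FDR = 0.0224). MSTRG.5191 (HMEL003428g1) had 22.5, 19.8, 21.1 and 17.5 CPM in cythera and 44.4, 39.2, 33.8 and 29.5 CPM in rosina (log2 fold change -0.86, SE 0.16, edgeR FDR = 0.0433). These were differences in level of a gene read in every library of both subspecies. The first 2 stayed DE in 3 of the 8 fits with an individual left out, and MSTRG.5191 in 0 of 8.

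**Figure D3:**
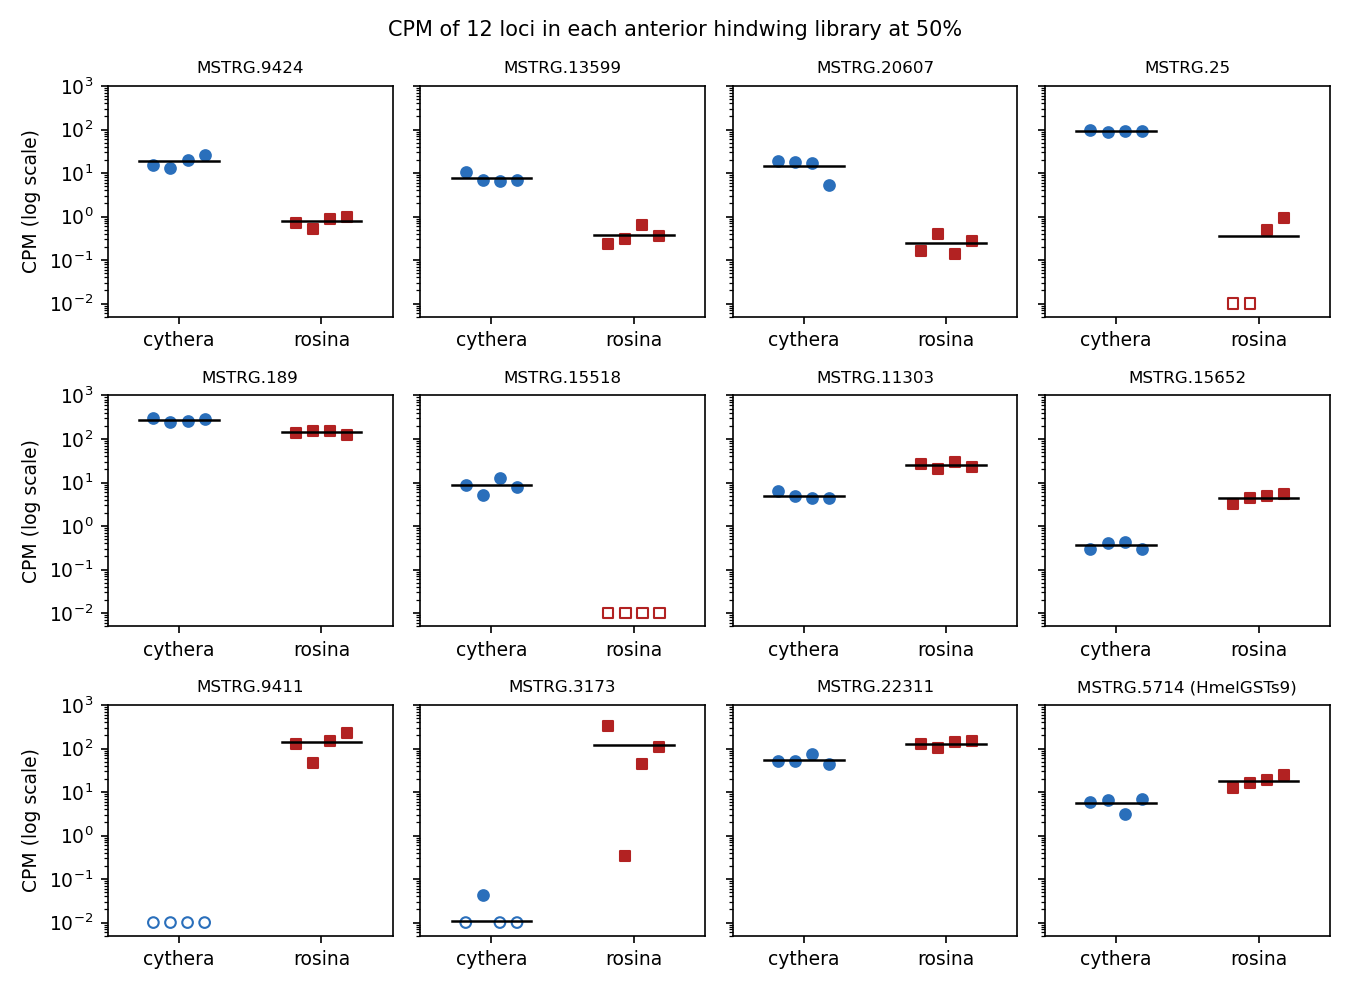
CPM (y axis, log scale) of 12 loci in the 4 cythera (left, circles) and 4 rosina (right, squares) anterior hindwing libraries at 50%, individuals 1 to 4 and 5 to 8 from left to right. Black lines are group means and open symbols at 0.01 are libraries with no count; the groups do not overlap at any of the 12 loci.

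Some loci were read in only 1 of the subspecies. With at least 10 counts in all 4 libraries of 1 subspecies and at most 3 in every library of the other, 47 loci were read in cythera and 61 in rosina. Of the 47, 34 were DE, 24 had no count at all in rosina and 7 carried an annotated ID, and the mean cythera levels were between 0.382 and 8.71 CPM. Of the 61, 38 were DE, 22 had no count at all in cythera and 17 carried an annotated ID, and the mean rosina levels were between 0.352 and 139 CPM. Left out singly after the data were seen, individual 4 gave 47 and 77 such loci and individual 6 gave 57 and 61.

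The most abundant of them was MSTRG.9411 (HMEL004480g1), which had 0 counts in all 4 cythera libraries and 3765, 1832, 5494 and 10780 counts (125, 47.6, 151 and 232 CPM) in rosina individuals 5 to 8. With 3 counts allowed in each cythera library this is a level at least 1659.7-fold lower in cythera than in rosina (edgeR FDR = 0.0101), and DE with each individual left out. MSTRG.7348 (HMEL011179g1), named after its values were seen, likewise had 0 counts in cythera and 557, 1425, 536 and 577 counts in rosina, a level lower in cythera by at least 247-fold (edgeR FDR = 0.0093). These 2 annotated genes were thus read at moderate levels in every rosina pupa and in none of the cythera pupae of this stage. The study aligned the reads of both subspecies to the reference genome of the species. It puts much of the differential expression between subspecies down to divergence across the genome. Whether such zeros come from transcript level or from differences in sequence was not tested.

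In the other direction, MSTRG.15518 (HMEL026013g1) had 354, 238, 365 and 266 counts (8.96, 5.08, 13.0 and 7.81 CPM) in cythera and none in rosina, at least 107-fold higher in cythera (edgeR FDR = 0.0092). The locus with the next number, MSTRG.15519 (HMEL026011g1), had 117, 107, 112 and 98 counts in cythera and none in rosina, at least 37.3-fold higher (edgeR FDR = 0.0092). Both were DE with each individual left out. MSTRG.1708, without an annotated ID, had 521, 398, 249 and 51 counts in cythera and none in rosina, at least 98.8-fold higher (edgeR FDR = 0.0269), and individual 4 was the lowest. It was DE without individual 4 or 6 and missed the threshold without any other single individual (highest FDR = 0.0847). MSTRG.9731 had 236, 14, 427 and 141 counts in cythera and none in rosina, and with this spread it missed the threshold (edgeR FDR = 0.0851).

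MSTRG.3173, without an annotated ID, is an assembled locus that the study singles out within one of its mapped colour intervals. It had 0, 2, 0 and 0 counts in cythera and 10103, 13, 1584 and 4988 counts in rosina, or 334, 0.338, 43.6 and 108 CPM. The rosina individuals differed from each other far more than at most DE loci, with individual 6 close to the cythera libraries and individual 5 the highest. The edgeR FDR was 0.0407, and without individual 6 it was 0.00838, while without any other single individual it was above the threshold (highest 0.186). MSTRG.23734, also without an annotated ID, had 2, 2, 1 and 2 counts in cythera and 3187, 14, 498 and 1696 counts in rosina (edgeR FDR = 0.0427). 2 further loci of the same kind, noticed after their values were seen, were MSTRG.18241, with 2, 2, 0 and 5 counts in cythera and 9174, 18, 1405 and 4924 counts in rosina (edgeR FDR = 0.0453), and MSTRG.10811, with 2, 2, 1 and 4 counts in cythera and 6767, 11, 1033 and 3559 counts in rosina (edgeR FDR = 0.0471). All 4 were DE without individual 6 and missed the threshold without any other single individual. Their rosina libraries stood in the order of individuals 5, 8, 7 and 6. The counts of MSTRG.3173 were 3.17, 3.18 and 2.94 times those of MSTRG.23734 in rosina individuals 5, 7 and 8, and 0.929 times in individual 6. In the forewing and posterior hindwing the order among the rosina individuals was the same, with 320, 0.541, 35.4 and 183 CPM of MSTRG.3173 and 109, 0.514, 11.4 and 62.5 CPM of MSTRG.23734. Whether the 4 loci share reads was not tested.

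A group of loci higher in cythera varied among the individuals in a shared way. It was picked after the values were seen, as the 9 DE loci most like MSTRG.9298 over the 8 libraries (Pearson's r of log2 CPM at 0.983 or more, a description in which the difference between the subspecies itself takes part). MSTRG.9298 had 53.1, 50.8, 51.8 and 15.7 CPM in cythera and 0.894, 2.13, 0.550 and 1.36 CPM in rosina. MSTRG.15659 (HMEL032064g1), the most abundant of the 9, had 189, 166, 166 and 47.7 CPM in cythera and 3.38, 5.67, 2.06 and 4.59 CPM in rosina (log2 fold change 5.18, SE 0.53, edgeR FDR = 0.0092). MSTRG.20607 (HMEL034194g1) had 18.5, 17.8, 17.3 and 5.20 CPM in cythera and 0.165, 0.390, 0.138 and 0.280 CPM in rosina (log2 fold change 5.89, SE 0.55, edgeR FDR = 0.0074). In each case the first 3 cythera individuals were nearly equal and individual 4 was lower.

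Across the 9 loci, individual 4 had between 0.270 and 0.384 of the mean of individuals 1 to 3 in the anterior hindwing, and between 0.240 and 0.299 in the forewing and posterior hindwing of the same animal. The loci were chosen over these same anterior hindwing libraries. The low individual 4 there, and the high rosina individual 6 given below, therefore entered the choice. The other members were MSTRG.25772, MSTRG.11175, MSTRG.20774, MSTRG.10959, MSTRG.4592 and MSTRG.4593 (HMEL014395g2), with means between 4.27 and 42.9 CPM in cythera and between 0.292 and 1.56 CPM in rosina. In rosina, individual 6 was the highest at each of the 9 loci. Of the 99 loci higher in cythera, 50 had an r above 0.95 with MSTRG.9298, and the median r of the 99 was 0.951. The step between the subspecies enters this r, so the 50 are no count of loci sharing the pattern among individuals. Whether the 9 loci are parts of 1 transcript family or share reads was not tested.

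**Figure D4:**
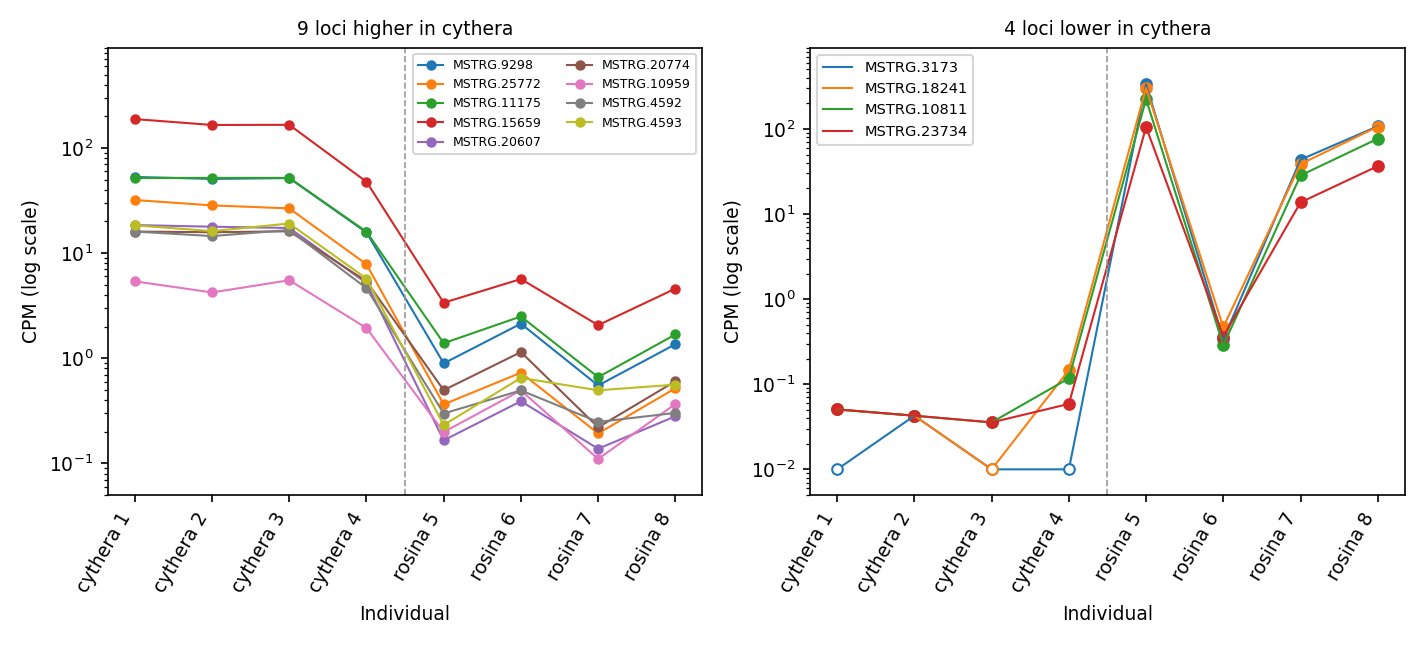
CPM (y axis, log scale) in each of the 8 anterior hindwing libraries at 50% (x axis, cythera 1 to 4 and then rosina 5 to 8), with lines joining the values of a locus. On the left the 9 loci most like MSTRG.9298 fall together in cythera individual 4; on the right MSTRG.3173, MSTRG.18241, MSTRG.10811 and MSTRG.23734 follow the same order among the rosina individuals, and open circles at 0.01 are libraries with no count.

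Individual 4 had the lowest cythera value at 51 of the 99 loci higher in cythera. At 28 of the 99 it had less than 0.5 times the level of every other cythera library. Such a level under 0.5 times every other was found in individual 4 at 739 of the 6869 genes tested whose log2 fold change was above 0. For the lowest value alone, in individual 4 and in individual 6 below, no share over all genes was computed. In rosina, individual 6 had the lowest value at 34 of the 86 loci lower in cythera, and lay under 0.5 times every other rosina library at 18 of them, against 408 of 6381 genes with a log2 fold change below 0. The other individuals lay under 0.5 times the rest of their group at 0 to 3 of these loci.

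DE loci tended to carry neighbouring numbers, which was noticed after the values were seen. Of the 185, 20 (10.8%) had another DE locus at the next or previous number, against 1.22% of all numbered loci tested, and in all 20 the direction was the same as that of the neighbour. Within 5 numbers the shares were 18.4% and 5.84%. The sources used here do not say that numbers follow the genome, and positions were not used. MSTRG.20606, MSTRG.20607 and MSTRG.20608 formed a run of 3 higher in cythera. MSTRG.20606 had 70.99, 64.5, 68.2 and 84.8 CPM in cythera and 1.75, 7.05, 1.46 and 2.22 CPM in rosina, and MSTRG.20608 (HMEL034195g1) had 86.1, 78.6, 82.6 and 39.1 CPM in cythera and 0.364, 2.94, 3.93 and 1.44 CPM in rosina. Individual 4 was thus the highest cythera library at MSTRG.20606 and the lowest at the next 2 numbers. Another run was MSTRG.18433 to MSTRG.18435, of which MSTRG.18435 had 59.9, 45.4, 57.0 and 52.6 CPM in cythera and 17.7, 19.6, 9.35 and 17.0 CPM in rosina (log2 fold change 1.75, SE 0.23, edgeR FDR = 0.0167).

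Gene families with hand-given names allowed a view of known functions. Glutathione S-transferases (GST) couple glutathione to toxins and other small molecules, and UDP-glycosyltransferases (UGT) couple sugars to them. Gustatory receptors (Gr) detect contact chemicals and ionotropic receptors (IR) detect odours, humidity or temperature, as known from Drosophila. Of 21 GST genes tested 1 was DE, of 17 UGT, 5 IR and 3 Gr genes 0 were DE by edgeR, and the number at an unadjusted p under 0.05 was 3 GST, 6 UGT, 0 IR and 0 Gr. DESeq2 called 1 GST, 3 UGT, 0 IR and 0 Gr genes. Over the 46 genes of the 4 families these are 9 genes (19.6%) at an unadjusted p under 0.05 and 4 (8.7%) by DESeq2. Of all genes tested, 13.9% and 7.02% were so, and 1.4% were DE by edgeR. The pooled shares hide differences between the families. UGT gave 6 of 17 at an unadjusted p under 0.05 and 3 of 17 by DESeq2, and GST 3 of 21 and 1 of 21. IR gave 0 of 5 and Gr 0 of 3 by either count. Whether the share of a single family differed from that of all genes was not tested. The medians of the log2 fold change were -0.10 for GST, 0.19 for UGT, 0.00 for IR and 0.19 for Gr, against 0.02 over all genes tested.

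HmelGSTs9, a sigma-class GST by its name, was the family member that fell. It had 5.97, 6.40, 3.17 and 6.81 CPM in cythera and 12.4, 16.2, 19.2 and 24.5 CPM in rosina, with no overlap (log2 fold change -1.69, SE 0.30, edgeR FDR = 0.0375). It remained DE in 2 of the 8 fits that left out an individual. In the forewing and posterior hindwing it had 5.01, 5.31, 3.02 and 4.90 CPM in cythera and 14.6, 18.2, 16.2 and 21.1 CPM in rosina. HmelGSTs1, of the same class, had 27.4, 37.9, 24.8 and 69.6 CPM in cythera and 46.1, 105, 107 and 91.1 CPM in rosina. Its groups overlapped through cythera individual 4 and rosina individual 5, and it was not DE (log2 fold change -1.13, SE 0.39, edgeR FDR = 0.244). The most abundant GST, HmelGSTd2, had 367 CPM in cythera and 392 CPM in rosina on average (edgeR FDR = 0.972).

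3 UGT genes came next by p among the named families. They missed the threshold by edgeR and were the 3 that DESeq2 called. HmelUGT40Z2 had 9, 14, 20 and 7 counts in cythera and 77, 93, 41 and 43 counts in rosina (log2 fold change -2.28, SE 0.58, edgeR FDR = 0.116). HmelUGT33X1 had 0, 4, 4 and 0 counts in cythera and 8, 60, 27 and 22 counts in rosina (edgeR FDR = 0.187), and HmelUGT41E3 had 0, 0, 0 and 14 counts in cythera and 31, 61, 105 and 174 counts in rosina (edgeR FDR = 0.208). All 3 had no overlap between the subspecies at low counts, and at HmelUGT41E3 cythera individual 4 alone was read. Without individual 4 the FDR of HmelUGT41E3 was 0.0253. Another 3 UGT genes with an unadjusted p under 0.05 by edgeR went the other way, at higher levels. On average HmelUGT40U1 had 12.2 CPM in cythera and 3.88 in rosina (edgeR FDR = 0.261). HmelUGT40Y1 had 4.69 and 2.50 CPM (edgeR FDR = 0.296), and HmelUGT50A4 had 138 and 95.7 CPM (edgeR FDR = 0.310). Of the ionotropic receptors, HmIR25a_1, named as the co-receptor IR25a, had 728 CPM in cythera and 804 CPM in rosina on average (edgeR FDR = 0.927). The 4 families therefore gave 1 DE gene of 46 tested, HmelGSTs9.

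The same animals also gave a library of the forewing with the posterior hindwing, the area that is iridescent in cythera. A test of whether the subspecies difference of a gene differed between the wing regions, with individual as a block, found 0 DE loci among 16025 genes tested by edgeR (smallest FDR = 0.0795). Of these, 555 (3.46%) had an unadjusted p under 0.05, and of the 185 loci DE in the anterior hindwing, whose values there enter the same term, 23 did. MSTRG.22227 (HMEL010934) had the smallest p among positive region terms (a larger difference in the anterior hindwing). It had 29.3, 14.6, 13.1 and 17.0 CPM in cythera and 2.98, 2.13, 3.11 and 2.87 CPM in rosina in the anterior hindwing (log2 fold change 2.74, SE 0.29, edgeR FDR = 0.0092, and 0.0512 without individual 8). In the forewing and posterior hindwing it had 22.4, 10.5, 10.2 and 15.3 CPM in cythera and 4.94, 3.52, 5.50 and 5.06 CPM in rosina (log2 fold change 1.62, SE 0.29). The region term was 1.12 (SE 0.13, edgeR FDR = 0.0795).

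MSTRG.10641 (HMEL006897g1) had the same FDR for the region term and a different kind of pattern. It had 1.39, 2.63, 0.178 and 0.411 CPM in cythera and 0, 70.4, 20.9 and 0 CPM in rosina in the anterior hindwing. In the forewing and posterior hindwing it had 0.757, 1.10, 0.667 and 0.147 CPM in cythera and 0, 0.162, 0.0840 and 0 CPM in rosina. Rosina individuals 6 and 7, a female and a male, thus read the gene in the anterior hindwing and hardly in the rest of the wing, and individuals 5 and 8 had no count in either. The region term was -7.69 (SE 0.78), and its FDR was 0.0144 with the newer edgeR fit and 0.017 with no filter on low counts. MSTRG.23235, which joins HMEL008596g1 and HMEL034885g1, was uneven within cythera, at 10.2, 45.1, 1.96 and 50.4 CPM against 3.14, 2.50, 3.63 and 3.32 CPM in rosina, with the 2 males above the 2 females in cythera. It was not DE (edgeR FDR = 0.148), and of the fits with an individual left out only that without individual 3 called it (FDR = 0.039). Over all 19 alternative settings its lowest FDR was 0.0021.

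At 70% development 4 cythera individuals (9 to 12) and 4 individuals labelled rosina (13 to 16) gave anterior hindwing libraries, none of which took part in the comparison at 50%. All 4 labelled rosina were males, whereas cythera had 2 females and 2 males. With all labelled individuals, 97 of the 185 loci were tested at 70%, 87 of them (89.7%) had the same direction, against 60.2% of all genes tested at both stages, and 28 (28.9%) had an unadjusted p under 0.05, against 7.76%. By edgeR 0 of 12296 genes were DE at 70% (smallest FDR = 0.0678, 983 at an unadjusted p under 0.05). The study left out a rosina individual that it found wrongly labelled, without giving its number in the text read here.

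Individual 13, labelled rosina, had levels like those of cythera at many of these loci. At 95 of the 121 DE loci tested at 70% without it, its log2 CPM was nearer to the mean of the 4 cythera individuals than to that of the other 3 rosina individuals. With it, 97 were tested, so the set of 121 itself depends on leaving it out. The same share over all genes was not computed. MSTRG.9411 had 0 counts in cythera individuals 9 to 12 and in individual 13, and 76.5, 85.7 and 81.7 CPM in rosina individuals 14 to 16. MSTRG.25 had 40.4, 47.3, 53.3 and 40.6 CPM in cythera, 37.9 CPM in individual 13, and 0, 0 and 0.202 CPM in the other 3 rosina individuals. MSTRG.1708 had 53.6, 64.2, 76.1 and 90.02 CPM in cythera, 84.4 CPM in individual 13, and 0.0642, 0 and 0.0252 CPM in the others.

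Without individual 13, 50 of 13087 genes were DE at 70% (0.382%), 30 of them higher in cythera. Individual 13 was set apart above by its levels at these same loci. Leaving it out therefore favours a repeat of the list, and the shares that follow are no independent check. Of the 185 loci, 121 were then tested at 70%, 116 (95.9%) had the same direction, against 61.9% of all genes, and 81 (66.9%) had an unadjusted p under 0.05, all 81 in the same direction, against 11.9% of all genes. With individuals 4 and 13 left out another list of DE loci was followed, of which 109 of 226 (48.2%) had such a p, and with individuals 6 and 13 left out 100 of 150 (66.7%). There were 14 loci DE at both stages, all in the same direction. The median log2 fold change of the 74 loci higher in cythera was 4.28 at 50% and 2.49 at 70%, and that of the 47 lower was -3.65 and -2.82. MSTRG.9424 had 9.35, 13.9, 8.62 and 7.56 CPM in cythera at 70% and 1.13, 0.513, 0.252 and 0.934 CPM in individuals 13 to 16 (without individual 13, log2 fold change 4.10, edgeR FDR = 0.0339). MSTRG.11303 had 1.89, 4.37, 4.40 and 3.76 CPM in cythera, 2.64 CPM in individual 13 and 17.1, 27.9 and 20.01 CPM in the other rosina individuals (without individual 13, log2 fold change -2.58, edgeR FDR = 0.0348).

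**Figure D5:**
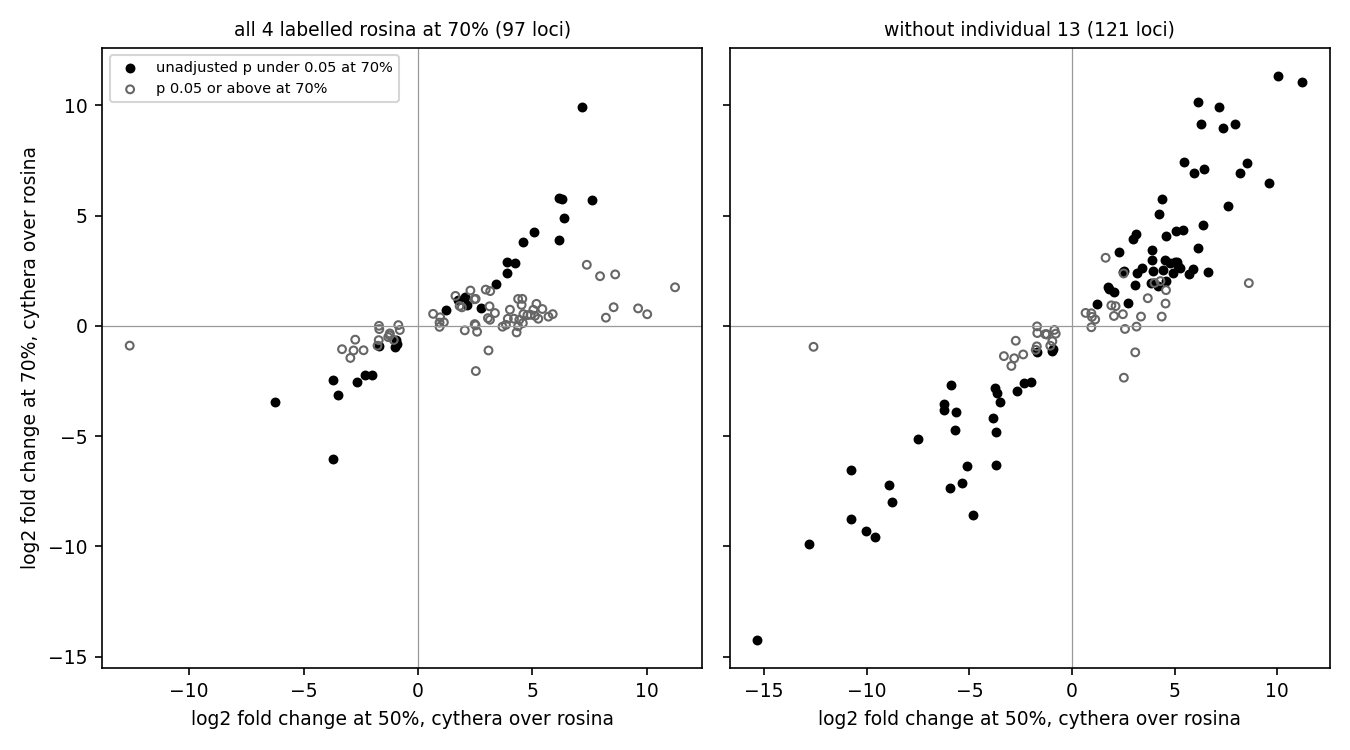
The log2 fold change of cythera over rosina in the anterior hindwing at 70% (y axis) against that at 50% (x axis) for DE loci of 50% that were tested at 70%, with all labelled individuals on the left (97 loci) and without individual 13 on the right (121 loci). Filled points have an unadjusted p under 0.05 at 70%; without individual 13 all 81 filled points have the same sign at both stages.

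Not every gene read in 1 subspecies at 50% was so at 70%. MSTRG.7348, without a count in the 4 cythera pupae at 50%, had 16.0 and 19.2 CPM in cythera individuals 9 and 10 at 70% and no count in individuals 11 and 12, beside 14.5, 12.7, 13.1 and 25.0 CPM in individuals 13 to 16. MSTRG.15518 had 9.69 and 4.52 CPM in cythera individuals 9 and 12 and no count in individuals 10 and 11, nor in those labelled rosina. MSTRG.15519 was read in the same 2 cythera individuals, with 4.85 and 1.37 CPM. These loci therefore varied between zero and moderate levels among individuals of cythera. MSTRG.3173 had 0.0969, 0, 0.109 and 0 CPM in cythera at 70%, none in individual 13, and 59.1, 91.4 and 0.631 CPM in individuals 14, 15 and 16, so that a rosina individual with almost no reads of it occurred at both stages.

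The 9 loci that varied together at 50% varied again among the cythera individuals at 70%. MSTRG.15659 had 32.3, 5.50, 44.7 and 29.8 CPM in cythera, 43.5 CPM in individual 13, and 4.01, 5.13 and 3.56 CPM in the other rosina individuals. In cythera, individual 10 was the lowest at each of the 9 loci, between 0.151 and 5.50 CPM, and individual 13 had the highest of all values labelled rosina at each of them. As at 50%, 1 of the 4 cythera individuals lay below the others at all 9 loci.

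A test of whether the subspecies difference in the anterior hindwing changed with stage called 1 locus among 15358 tested (0.00651%), MSTRG.25003 (HMEL007282g1). At 50% it was one of the abundant genes in both subspecies, with 1833, 1344, 1637 and 2914 CPM in cythera and 2187, 2810, 2798 and 2475 CPM in rosina, and these overlapped (log2 fold change -0.41, SE 0.27, edgeR FDR = 0.562). At 70% it had 26.2, 74.8, 38.0 and 94.0 CPM in cythera and 2.68, 2.60, 3.33 and 6.13 CPM in rosina, with individual 13 within the range of the other rosina individuals at this gene. The cythera males had 26.2 and 38.0 CPM of these and the cythera females 74.8 and 94.0 CPM, while all labelled rosina at 70% were males. The test had no sex term, and the part of sex in the stage term was not tested. The stage term, coded as 50% minus 70%, was -4.43 (SE 0.57, edgeR FDR = 0.0253), so the gene stood lower in cythera relative to rosina at 50% than at 70%. With 1 of the 16 individuals left out the FDR was between 0.0072 and 0.121, and it was above the threshold without individual 1, 2, 5, 7, 8, 10, 12, 13, 14 or 15. Of 183 loci DE at 50% and tested for the stage term, which were chosen on values that enter this term, 82 had an unadjusted p under 0.05, against 7.29% of all genes tested. This test kept individual 13. With it the median log2 fold change at 70% was 0.78 for 70 loci higher in cythera and -0.90 for 27 lower. Without it these were 2.49 for 74 loci and -2.82 for 47. The part of individual 13 in the 82 was not tested.

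MSTRG.15748 (HMEL002072g1) and MSTRG.6932 (HMEL022529g1) had the smallest p for the stage term among genes with a positive one, without reaching the threshold. MSTRG.15748 had 99.3, 42.4, 30.1 and 8.49 CPM in cythera and 5.16, 6.68, 4.84 and 4.61 CPM in rosina at 50%, and between 4.86 and 7.12 CPM in cythera and between 6.42 and 7.09 CPM in rosina at 70%. All 4 cythera individuals lay above rosina at 50%, with a range of more than 10 times among them and individual 4 the lowest. The stage term was 3.19 (SE 0.68, edgeR FDR = 0.374), and the difference at 50% missed the threshold (edgeR FDR = 0.0675), while it was DE without individual 4 (edgeR FDR = 0.0132). MSTRG.6932 had 5.90, 6.19, 7.59 and 2.20 CPM in cythera and 1.69, 0.390, 0.385 and 0.712 CPM in rosina at 50% (stage term 4.56, SE 0.95, edgeR FDR = 0.372), and at 50% its FDR was 0.0727 by edgeR, and 0.0412 without individual 4. MSTRG.17040 (HMEL032550g1), with 48.7, 51.1, 49.2 and 69.0 CPM in cythera and 117, 78.9, 147 and 155 CPM in rosina at 50% (edgeR FDR = 0.0547, and 0.0367 without individual 4 and 0.0203 without individual 6), had a stage term of -2.08 (SE 0.37, edgeR FDR = 0.336), and at 70% its levels were 3.08 to 10.5 CPM over all 8 libraries.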

How the data were processed

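RNA was sequenced by the authors from pupal wing regions (RNeasy extraction, TruSeq Stranded mRNA kit). They deposited raw counts per gene or assembled locus as whole numbers, without scaling. The submitters' processing notes name Trimmomatic 0.38, HISAT2 2.1.0, SAMtools 1.9, StringTie 1.3.5 and edgeR; the genome build, annotation, counting step and strand setting are not given in the sources used here. Where loci overlap or have near-identical copies, the split of reads between them is therefore uncertain. Subspecies, region, stage, sex and individual came from the labels, subspecies from the organism field. 0 columns were unused, 0 rows lacked an ID, and 0 IDs matched the RefSeq gene table (ASM5695672v1), so loci are given by the IDs of the files.

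The deposited counts entered edgeR 4.0.16 (R 4.3.3): filterByExpr (minimum count 10), TMM, quasi-likelihood F-test in its earlier form, Benjamini-Hochberg FDR over all genes tested, threshold 0.05. SE was derived from the F statistic. Figures used Python 3.11.15 and matplotlib 3.10.9. Positive log2 fold changes mean higher in cythera. CPM are counts over the TMM-scaled library size and are not corrected for length. The members, lists and named loci were chosen with earlier results of these data known. Loci named are the 6 of smallest p in each direction, the 4 most abundant annotated DE loci in each direction, the 3 most abundant read in each subspecies alone, DE and next-ranked (4 of smallest p) hand-named genes, MSTRG.3173, the 2 of smallest p in each direction of both interaction tests, and the 3 of smallest p DE at both stages; others are said to be chosen after seeing values. For the region test, both libraries of an individual are from the same animal by the labels, and their deviations from group means correlated at 0.680 to 0.852 over the 8 pairs, so individual was a block. No pair of libraries of a group agreed within sampling noise (chi-square per degree of freedom 88.8 or more). Alternatives were DESeq2 1.42.0, other scalings, filters and fits, a sex term, each sex alone, both stages in 1 fit, and each individual left out. The tests were tried on simulated data.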

Additional observations from a re-analysis of the deposited data

Results flagged for a closer look

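In 79 groups of 4 libraries, the lowest or highest library was checked for a gap to the rest above Dixon's critical value of 0.829. This marked 9 groups. For independent values with a normal spread about 1 in 20 would be marked, or 3.95 of 79. A group with zero in all but 1 library is marked whatever that value is, and some of the loci vary together. The number marked can therefore not be weighed against this rate. Cythera individual 4 was the library marked in 5 of the 9. It was low at MSTRG.20607, with 5.20 CPM against 17.3 to 18.5 in the other cythera libraries, and at MSTRG.15659, with 47.7 CPM against 166 to 189. It was high at MSTRG.17040, with 69.0 CPM against 48.7 to 51.1, at HmelUGT41E3 (MSTRG.20238), with 0.411 CPM against 0, and at MSTRG.443, with 0.0294 CPM, a single count, against 0.

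The other marked libraries were cythera individual 1 at MSTRG.13599 (10.4 CPM against 6.55 to 6.99), cythera individual 2 at MSTRG.3173 (0.0427 CPM, 2 counts, against 0) and rosina individual 5 at MSTRG.21538 (29.8 CPM against 33.5 to 34.2). Rosina individual 7 had 23.8% of its counts in loci that join 2 or more annotated IDs, against 19.4% to 20.1% in the other rosina libraries.

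The difference between cythera and rosina at MSTRG.25003 (HMEL007282g1) changed with stage, by a term of -4.43 on the log2 scale (50% minus 70%, edgeR FDR = 0.0253). The test had no sex term, and at 70% all labelled rosina were males whereas cythera had both sexes.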

How the results depend on the processing

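The number of DE loci between the subspecies, 185, was 930 by DESeq2 and 390 with the newer edgeR fit, 84 with no filter on low counts and 32 with at least 10 counts in every library, where 54 of the 185 could be tested. It was 0 in females alone and 0 in males alone (2 against 2), and between 23 and 354 with an individual left out. Other scalings, robust dispersions and a sex term gave 164 to 188, and both stages in 1 fit gave 147 (69 higher, 78 lower), of which 78 were among the 185. Of the 164 with a sex term, 139 were among the 185. Each of the 185 that could be tested kept its direction under every alternative, which groups without overlap make nearly certain beforehand. For the region term, which had 0 calls, the number was 1 with no filter, 1 with the newer fit, and 0 to 1 with an individual left out, and without the block of individual it was 0 (smallest FDR = 0.455). For the stage term the 1 call became 0 to 6 with an individual left out. At 70%, 28 of 97 loci (28.9%) had an unadjusted p under 0.05, 81 of 121 (66.9%) without individual 13, 109 of 226 (48.2%) also without 4 and 100 of 150 (66.7%) also without 6, each of the last 2 on its own list of DE loci. The direction was the same for 87 of 97 (89.7%), for 198 (87.6%) and 145 (96.7%) in these last 2, and for 109 of 118 (92.4%) to 168 of 202 (83.2%) with individual 6 or 4 left out at 50%. Leaving out individual 13 favours the repeat, because it was set apart by its levels at these loci. Loci read in 1 subspecies numbered 24 (cythera) and 22 (rosina) with a limit of 0 counts, and 118 and 162 with a limit of 10. Called loci without an annotated ID numbered 14 to 206 with an individual left out. The leave-outs behind this last number, and those of 4 or 6 together with 13, were chosen after seeing the data. Over 903 values of 49 named loci, 675 stayed on their side of the threshold, 207 fell short of it, 21 passed it and 0 changed sign past it. The cause of these shifts was not tested. Depth limits loci near 3 counts a library.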
